A study of Canis lupus familiaris with 12 samples.

Results

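NFE2L2, which encodes the transcription factor NRF2, its inhibitor KEAP1 and 7 target genes of NRF2 (NQO1, HMOX1, GCLC, GCLM, SLC7A11, TXNRD1 and SRXN1) were followed in the hippocampus of beagle dogs. The genes were taken by symbol from the deposited hippocampal table, which held all 9 of them among 31158 gene models. The 3 pacing samples came from beagles given rapid atrial pacing for 2 weeks, and the 3 sham samples from beagles given a sham operation. Pacing at a high rate drives the atria electrically and is used as a model of atrial fibrillation. No genotype, age or agent is given for either arm, and the labels do not say whether each sample came from a separate dog, so the p-values measure the spread between these samples, which may be technical. The study asked how atrial fibrillation bears on cognition, with mRNA of the hippocampus sequenced beside miRNA of vesicles from epicardial fat. The vesicle samples were not used here.

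NRF2 is the main transcription factor of the response to oxidants and electrophiles. In resting cells KEAP1 holds it in the cytoplasm and presents it to a cullin ubiquitin ligase, so that the protein is destroyed soon after it is made. Oxidation of cysteines in KEAP1 ends this, and NRF2 then enters the nucleus, pairs with a small MAF protein and binds antioxidant response elements in its target genes. Control is therefore mostly of the protein, and the levels given here are of mRNA. In brain the pathway is best known from astrocytes, which export glutathione precursors to neurons.

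All 9 genes were expressed at moderate levels in each of the 6 libraries, and 0 of them passed the test between pacing and sham (limma, adjusted p under 0.05). In the same fit 0.0249% of the 16090 genes tested passed, 0.0186% higher and 0.00622% lower in pacing. That is 4 genes over the whole table, with 9 when sham replicate 2 is left out and 95 when sham replicate 1 is left out, and none of the 9 NRF2 genes among either. By arm mean 4 of the 9 were higher in pacing (NQO1, GCLC, SLC7A11 and TXNRD1) and 5 lower (NFE2L2, KEAP1, HMOX1, GCLM and SRXN1). The median log2 difference of the 9 was -0.04, and that of all genes tested was -0.04. SLC7A11 was the member with an unadjusted p under 0.05, where 9.15% of all genes tested had one and 2.85% had one and were higher in pacing. SLC7A11 was likewise the member whose arms did not overlap, where 16.2% of all genes tested did not overlap and 4.92% were higher in every pacing library. With 1 gene of 9 against such shares, neither count is a result about the NRF2 genes. limma-voom on whole reads also passed 0 of the 9, with SLC7A11 at an unadjusted p under 0.05. Which genes had such a p changed with the libraries in the fit. With array weights they were NQO1, GCLC and SLC7A11, beside 13.4% of all genes, and without sham replicate 2 they were NQO1 and GCLC, beside 11.7%. With the replicate block, without sham replicate 3, and without any 1 of the pacing libraries there were none.

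Levels below are RPKM, reads scaled to exon length and to the assigned reads of the library, as deposited. Differences are pacing minus sham on the log2(RPKM + 1) scale, which understates the change of low genes, and adjusted p-values are those of limma over all 16090 genes. Libraries held 35003483 to 43425895 assigned reads in pacing and 36573169 to 51789497 in sham. The members drew from 285 reads (HMOX1 in pacing replicate 3) to 4785 reads (KEAP1 in sham replicate 1). Sham replicate 2 stood apart from the other libraries, at 39.6 on a first principal component with 45.3% of the variance, while the others lay between -13.5 and 8.61. Its summed oligodendrocyte markers (10 genes, none at 0) reached 2874 RPKM, against 1577 to 1952 RPKM in pacing and 1142 to 1602 RPKM in the other sham libraries. Its summed neuron markers (10 genes, none at 0) were 1841 RPKM, below 2593 to 2827 RPKM in pacing and 2761 to 2818 RPKM in the other sham libraries. Transthyretin, the main choroid plexus transcript, ran from 2.46 RPKM in sham replicate 1 to 449 RPKM in sham replicate 2, with pacing libraries between 70.5 and 155 RPKM. In bulk tissue fewer cells of a type and less RNA per cell cannot be told apart, and the part of these markers in the results below was not tested.

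**Figure D1:**
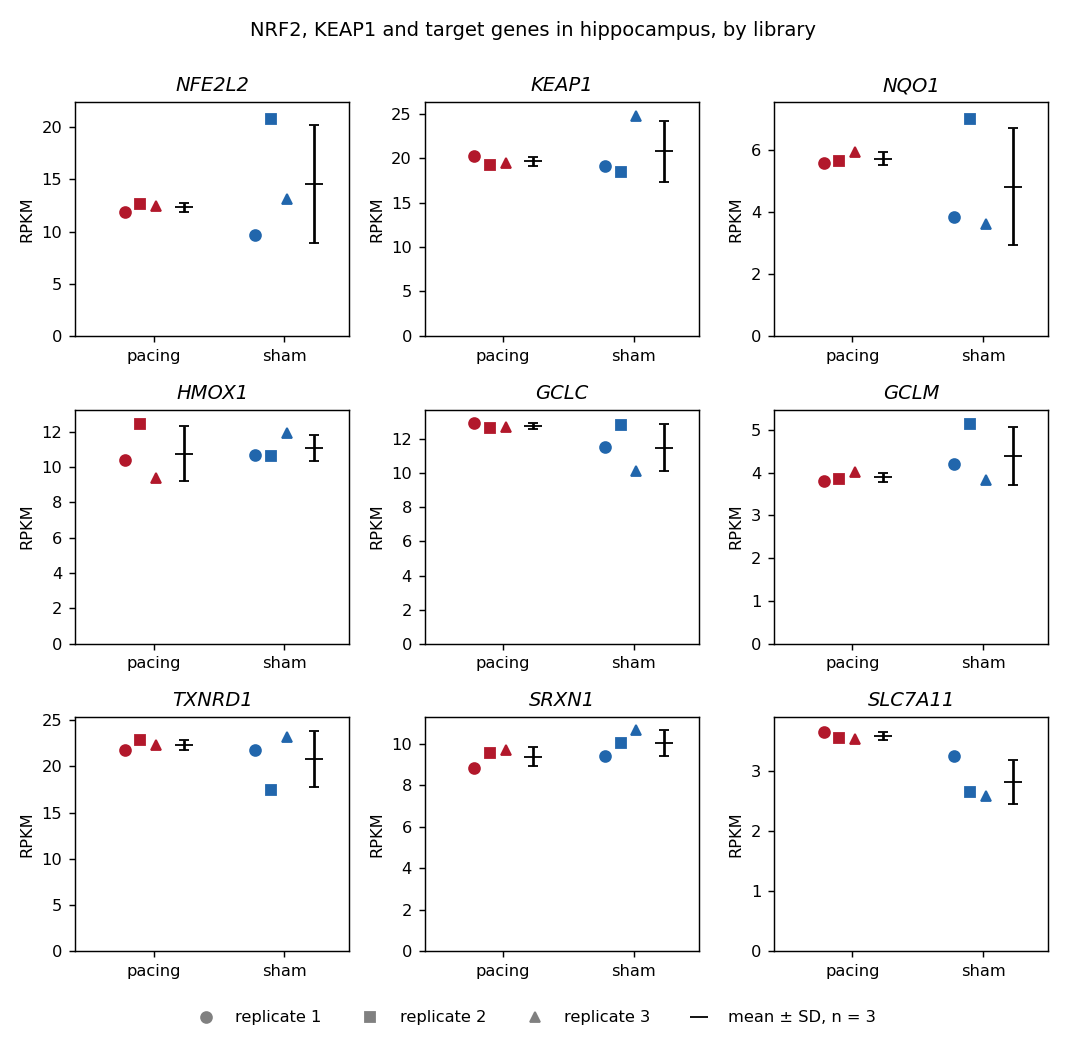
RPKM of each of the 9 genes (vertical axes, from 0) in the 3 pacing libraries (red) and the 3 sham libraries (blue), with the marker shape giving the replicate and the black bar the mean ± SD of each arm (n = 3). The pacing points lie close together for all genes but HMOX1, and sham replicate 2 is the highest point for NFE2L2, NQO1 and GCLM and the lowest for TXNRD1 and KEAP1.

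NFE2L2 lies on the minus strand of chromosome 36, from 20989205 to 21087044 (CanFam3.1, as in the deposited table), with 2803 bases of exon in 7 blocks. It stood at 11.8, 12.7 and 12.4 RPKM in pacing replicates 1 to 3, and at 9.71, 20.8 and 13.1 RPKM in sham replicates 1 to 3. The pacing values fell inside the sham range, which sham replicates 1 and 2 set at its low and high ends. NFE2L2 averaged 12.3 ± 0.432 RPKM in pacing and 14.5 ± 5.66 RPKM in sham (SD, n = 3 each). The log2 difference was -0.16 (95% interval -0.72 to 0.39, adjusted p = 0.849), so changes from 0.609-fold to 1.31-fold lie within the interval. Without sham replicate 2 the log2 difference turned to 0.11 (adjusted p = 0.758), and without sham replicate 1 it was -0.40 (adjusted p = 0.301).

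KEAP1, the substrate adaptor that marks NRF2 for degradation, lies on the plus strand of chromosome 20, from 50651070 to 50661178, with 5003 bases of exon. It stood at 20.2, 19.2 and 19.5 RPKM in pacing replicates 1 to 3, and at 19.2, 18.5 and 24.7 RPKM in sham replicates 1 to 3. Sham replicate 3 was the high value here, and the other 5 libraries lay within 18.5 to 20.2 RPKM. KEAP1 averaged 19.6 ± 0.515 RPKM in pacing and 20.8 ± 3.42 RPKM in sham (log2 difference -0.07, 95% interval -0.36 to 0.22, adjusted p = 0.884). Without sham replicate 3 the difference turned to 0.06 (adjusted p = 0.852), and without sham replicate 2 it was -0.14 (adjusted p = 0.651).

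The ratio of NFE2L2 to KEAP1 within a library, which does not depend on how libraries are scaled, was 0.586, 0.661 and 0.638 in pacing. In sham it was 0.507 and 0.532 in replicates 1 and 3 and 1.13 in replicate 2, the library with more NFE2L2 than KEAP1 RNA per length. The log2 ratio averaged -0.67 ± 0.0887 in pacing and -0.57 ± 0.645 in sham. The difference of -0.10 was within the spread (exact permutation test, two-sided, p = 1, n = 3 each, where 0.1 is the smallest p that 3 against 3 allows). Without sham replicate 2 the difference was 0.27.

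NQO1, a quinone reductase that is often read as the marker of NRF2 activity, lies on chromosome 5 (plus strand, 79979593 to 79990875). It stood at 5.59, 5.63 and 5.95 RPKM in pacing replicates 1 to 3, and at 3.84, 6.99 and 3.61 RPKM in sham replicates 1 to 3. All pacing libraries were above sham replicates 1 and 3 and below sham replicate 2. NQO1 averaged 5.72 ± 0.197 RPKM in pacing and 4.82 ± 1.89 RPKM in sham (log2 difference 0.26, 95% interval -0.23 to 0.74, adjusted p = 0.712). Without sham replicate 2 the log2 difference was 0.51, with an unadjusted p = 0.00103 by limma, and it did not pass over all genes (adjusted p = 0.163). Without sham replicate 1 the difference was 0.15 (unadjusted p = 0.539), and without sham replicate 3 it was 0.11 (unadjusted p = 0.621).

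HMOX1, the inducible haem oxygenase, breaks haem down to biliverdin, iron and carbon monoxide. It lies on chromosome 10 (minus strand, 28744404 to 28751544). It stood at 10.4, 12.5 and 9.39 RPKM in pacing replicates 1 to 3, and at 10.7, 10.6 and 11.9 RPKM in sham replicates 1 to 3. The pacing libraries enclosed the sham libraries, the reverse of what NFE2L2 showed. HMOX1 averaged 10.8 ± 1.57 RPKM in pacing and 11.1 ± 0.743 RPKM in sham (log2 difference -0.04, 95% interval -0.33 to 0.24, adjusted p = 0.925), and the sign turned under median-of-ratios scaling (0.01). Sham replicate 2, the library with the most NFE2L2 and NQO1, was not raised in HMOX1.

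GCLC and GCLM encode the catalytic and the modifier subunit of glutamate-cysteine ligase, the rate-limiting enzyme of glutathione synthesis. GCLC, on chromosome 12 (minus strand, 20999815 to 21047779), stood at 13.0, 12.6 and 12.7 RPKM in pacing replicates 1 to 3, and at 11.6, 12.8 and 10.1 RPKM in sham replicates 1 to 3. The pacing libraries lay above sham replicates 1 and 3 and on either side of sham replicate 2. GCLC averaged 12.8 ± 0.163 RPKM in pacing and 11.5 ± 1.36 RPKM in sham (log2 difference 0.14, 95% interval -0.11 to 0.39, adjusted p = 0.690). The difference was 0.22 without sham replicate 2 (unadjusted p = 0.0456, adjusted p = 0.413) and 0.06 without sham replicate 3 (adjusted p = 0.852).

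GCLM, on chromosome 6 (plus strand, 55204602 to 55244217), stood at 3.82, 3.84 and 4.01 RPKM in pacing replicates 1 to 3, and at 4.20, 5.15 and 3.84 RPKM in sham replicates 1 to 3. Sham replicate 2 was the high value, and sham replicate 3 lay among the pacing libraries. GCLM averaged 3.89 ± 0.105 RPKM in pacing and 4.40 ± 0.676 RPKM in sham (log2 difference -0.14, 95% interval -0.41 to 0.14, adjusted p = 0.726). The difference was -0.04 without sham replicate 2 (adjusted p = 0.893) and -0.21 without sham replicate 3 (adjusted p = 0.657).

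The 2 subunits differed from each other in direction, and their ratio separated the arms. GCLM to GCLC was 0.294, 0.304 and 0.315 in pacing, and 0.363, 0.401 and 0.379 in sham. Every pacing library was below every sham library, also with each library left out in turn, since leaving one out cannot make the arms overlap. The log2 ratio averaged -1.72 ± 0.0484 in pacing and -1.39 ± 0.0712 in sham, a difference of -0.32 (exact permutation test, two-sided, p = 0.1, the smallest that 3 against 3 allows; adjusted p = 0.3 over the 3 ratios computed, n = 3 each). With 3 against 3 libraries this test cannot go below 0.05, so it cannot decide whether the ratio differs between the arms.

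SLC7A11 encodes the light chain of the antiporter that brings in cystine, the source of cysteine for glutathione, in exchange for glutamate. It lies on chromosome 19 (plus strand, 4289792 to 4379060) and has the longest model of the 9, at 9278 bases of exon. It stood at 3.64, 3.54 and 3.52 RPKM in pacing replicates 1 to 3, and at 3.24, 2.64 and 2.57 RPKM in sham replicates 1 to 3. All pacing libraries were above all sham libraries, and sham replicate 1 was the nearest. SLC7A11 averaged 3.57 ± 0.0648 RPKM in pacing and 2.82 ± 0.365 RPKM in sham, a ratio of means of 1.27. The log2 difference was 0.26 (95% interval 0.02 to 0.51, unadjusted p = 0.0403, adjusted p = 0.534, limma), and 1213 is its rank by p among the 16090 genes. It kept its sign with each library left out, at 0.22 to 0.34, and the unadjusted p was above 0.05 in all of these but the fit without sham replicate 1.

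SLC3A2, the heavy chain that carries SLC7A11 to the membrane, was chosen as the partner for a ratio. It stood at 18.8 ± 1.47 RPKM in pacing and 18.2 ± 1.89 RPKM in sham (log2 difference 0.04, adjusted p = 0.921). It also serves other amino acid transporters. SLC7A11 to SLC3A2 was 0.179, 0.204 and 0.189 in pacing, and 0.202, 0.138 and 0.132 in sham. Sham replicate 1 lay among the pacing libraries, so the arms overlapped for this ratio (log2 difference 0.30, exact permutation test, two-sided, p = 0.3, n = 3 each).

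TXNRD1, the cytosolic thioredoxin reductase, lies on chromosome 10 (minus strand, 33904065 to 34021549). It stood at 21.8, 22.9 and 22.3 RPKM in pacing replicates 1 to 3, and at 21.8, 17.4 and 23.1 RPKM in sham replicates 1 to 3. Sham replicate 2 was the low value, and the other 5 libraries lay within 21.8 to 23.1 RPKM. TXNRD1 averaged 22.3 ± 0.520 RPKM in pacing and 20.8 ± 3.004 RPKM in sham (log2 difference 0.11, 95% interval -0.17 to 0.39, adjusted p = 0.788). Without sham replicate 2 the difference was -0.01 (adjusted p = 0.970), and without sham replicate 3 it was 0.19 (adjusted p = 0.695).

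SRXN1, sulfiredoxin, which restores peroxiredoxins inactivated by peroxide, lies on chromosome 24 (plus strand, 20232608 to 20238838). It stood at 8.84, 9.55 and 9.72 RPKM in pacing replicates 1 to 3, and at 9.39, 10.04 and 10.6 RPKM in sham replicates 1 to 3. The arms overlapped, and the spread was small in each. SRXN1 averaged 9.37 ± 0.466 RPKM in pacing and 10.02 ± 0.624 RPKM in sham (log2 difference -0.09, 95% interval -0.31 to 0.13, adjusted p = 0.781). It was -0.05 without pacing replicate 1 or without sham replicate 3.

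**Figure D2:**
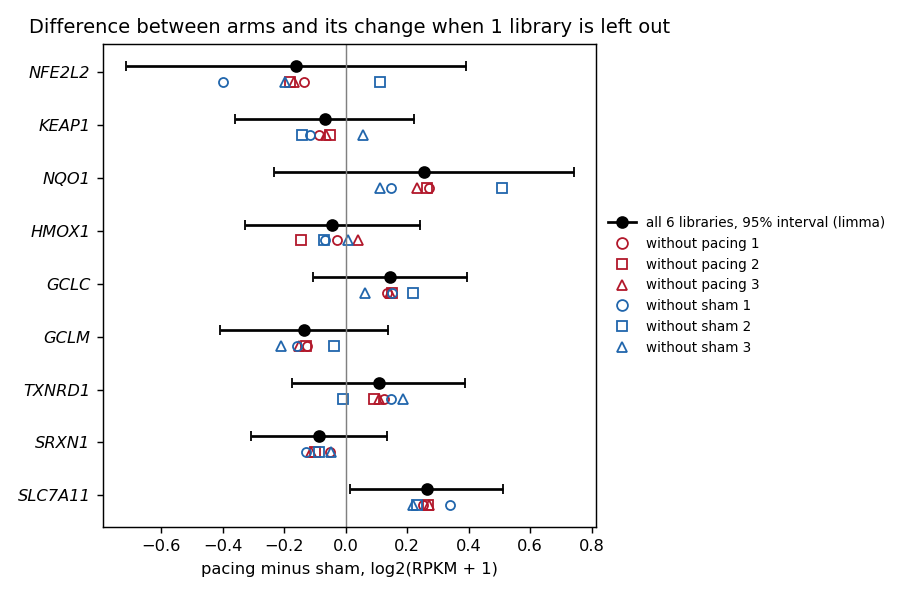
Pacing minus sham difference on the log2(RPKM + 1) scale for each gene (black point and bar, limma estimate with its 95% interval) and the same difference with 1 library left out (open symbols, red for a pacing and blue for a sham library). The interval spans 0 for all genes but SLC7A11, which runs from 0.02 to 0.51. The estimate crosses 0 when sham replicate 2 is left out for NFE2L2 and TXNRD1, when sham replicate 3 is left out for KEAP1, and when pacing replicate 3 or sham replicate 3 is left out for HMOX1.

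On the RPKM scale TXNRD1 and KEAP1 were the highest of the 9 in each arm and SLC7A11 the lowest. In pacing the order of levels was TXNRD1, KEAP1, GCLC, NFE2L2, HMOX1, SRXN1, NQO1, GCLM and SLC7A11. Neighbours in that order were apart in all pacing libraries, other than GCLC from NFE2L2, NFE2L2 from HMOX1 and HMOX1 from SRXN1. In sham NFE2L2 ranked above GCLC, and the neighbours that were apart were SRXN1 from NQO1 and GCLM from SLC7A11. The summed level of the 9 was 99.1 to 102 RPKM in pacing and 93.6 to 105 RPKM in sham.

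The spread between libraries was smaller in pacing for 8 of the 9, the exception being HMOX1. Over all genes tested 79.2% had the larger SD in sham, so most genes shared this. The coefficient of variation of the 9 had a median of 2.69% in pacing and 14.5% in sham, beside 8.39% in pacing and 17.0% in sham for all genes tested. For GCLC it was 1.28% in pacing, below the 2.48% that counting reads alone would give, and 11.8% in sham. Also below counting error in pacing were NQO1 (3.44% against 4.42%), GCLM (2.69% against 3.62%) and SLC7A11 (1.82% against 2.77%). The other members were above it. NQO1, at 39.2%, and NFE2L2, at 38.9%, varied most in sham and lay above 87.0% and 86.8% of the genes tested. HMOX1 varied by 14.6% in pacing and 6.71% in sham.

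Within the sham arm the 9 genes did not move as a block. Sham replicate 2 was the highest of all 6 libraries in NFE2L2, NQO1 and GCLM and the lowest in KEAP1 and TXNRD1. Sham replicate 3 was the highest in KEAP1, TXNRD1 and SRXN1 and the lowest in NQO1, GCLC and SLC7A11. NQO1 stood at -0.35, 0.38 and -0.41 in sham replicates 1 to 3, each relative to the mean of all libraries on the log2 scale. The mean of oligodendrocyte markers was -0.11, 0.67 and -0.59 in the same libraries. In pacing replicates 1 to 3 NQO1 stood at 0.10, 0.11 and 0.18, and oligodendrocyte markers at -0.09, 0.13 and -0.01. Of all 6 libraries, sham replicate 2 was also the highest in leukocyte markers (-0.30, 0.33 and -0.16 in sham replicates 1 to 3) and endothelial markers (-0.08, 0.22 and -0.15). Astrocyte markers were likewise highest in that library (-0.15, 0.21 and -0.04), as were erythrocyte markers (-0.001, 0.21 and -0.11, from 2 tested genes). Choroid plexus markers (-2.44, 1.74 and -0.61) were highest there too, from the 2 of 6 listed genes that were tested. On this scale ependymal markers were highest in sham replicate 3 (0.47). Microglia and meningeal fibroblast markers were highest in pacing replicate 2 (0.14 and 0.16), and pericyte and smooth muscle markers in pacing replicate 1 (0.07). Some of these places changed with the measure. By summed RPKM sham replicate 2 was highest in microglia markers (158, against 108 to 122 in pacing). It was also highest in pericyte and smooth muscle markers (84.5, against 74.3 to 77.8 in pacing). Summed ependymal markers were highest in sham replicate 1 (35.8 RPKM, with 35.4 in sham replicate 3). Immediate early and heat shock genes, many of which respond to handling of tissue, stood at 0.74 in sham replicate 2, at 0.27 in sham replicate 3 and between -0.31 and -0.23 in the other 4. What these markers contribute to the levels of the 9 genes was not tested.

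**Figure D3:**
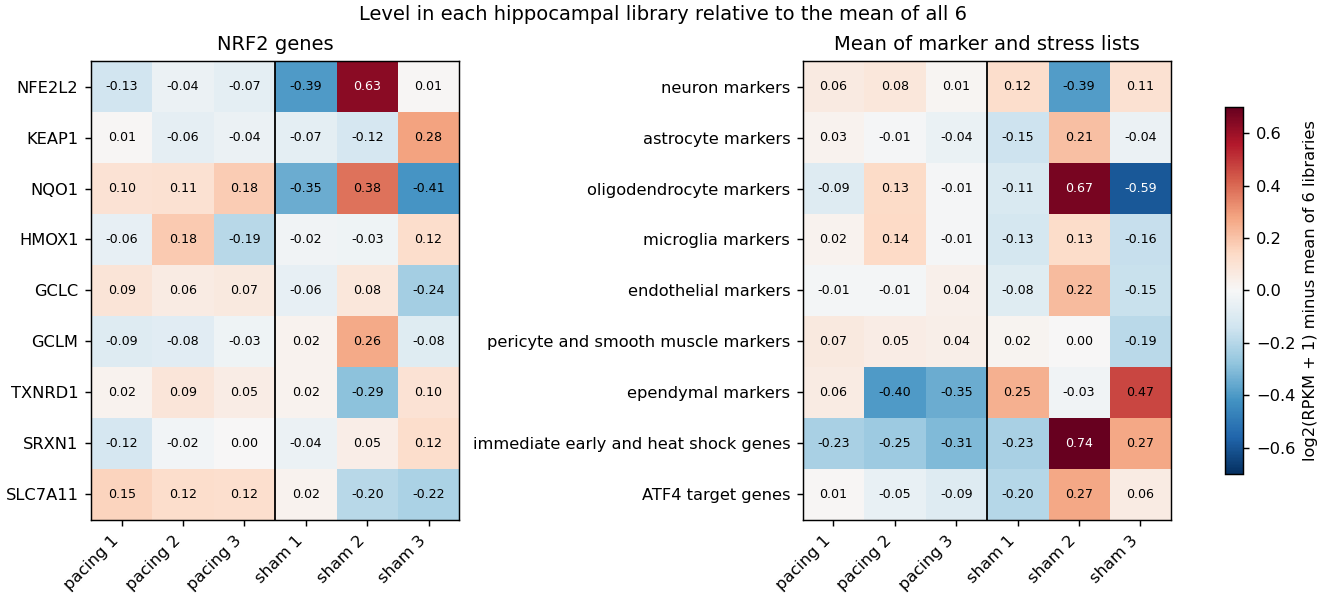
Level in each library relative to the mean of all 6 libraries on the log2(RPKM + 1) scale (colour and printed value), for the 9 genes on the left and for the means of a set of marker and stress lists on the right (choroid plexus markers not drawn), with pacing libraries left of the black line and sham libraries right of it. In sham replicate 2 NFE2L2 stands at 0.63, oligodendrocyte markers at 0.67, immediate early and heat shock genes at 0.74 and neuron markers at -0.39, while in sham replicate 3 NQO1 stands at -0.41 and oligodendrocyte markers at -0.59.

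As a description over the 6 libraries, which share depth and tissue makeup with all genes, NFE2L2 correlated at Pearson r = 0.75 with GCLM, 0.64 with NQO1, 0.01 with HMOX1 and -0.81 with TXNRD1. Without sham replicate 2 the values were -0.83 for GCLM, 0.31 for NQO1, 0.29 for HMOX1 and 0.77 for TXNRD1, so those for GCLM and TXNRD1 turned with 1 library. NQO1 and GCLC kept a high value (0.88 with all 6 libraries and 0.91 without sham replicate 2). Other pairs kept a negative value, such as KEAP1 and GCLC (-0.85 and -0.83) and SRXN1 and SLC7A11 (-0.84 and -0.86). These pairs were picked after all pairs were seen. Among 11621 other genes with a symbol and a mean of at least 1 RPKM, those most like NFE2L2 over the 6 libraries were STMN4 (r = 0.998), PIP4K2A (0.997), RNF114 (0.996), RNF7 (0.996) and DEF6 (0.995). Each had its highest level in sham replicate 2 and its lowest in sham replicate 1, as NFE2L2 did, and r without sham replicate 2 was 0.977 to 0.996. For HMOX1 they were WDTC1 (r = 0.988), KIF22 (0.983), DCAF8 (0.980), IGF2R (0.977) and NICN1 (0.976), each highest in pacing replicate 2 and lowest in pacing replicate 3.

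Close relatives of the 9, chosen after their values were seen, differed in how much of the family level they held. NFE2L2 made up 14.0 ± 0.662% of the summed RPKM of NFE2L1, NFE2L2, NFE2L3 and NFE2 in pacing and 15.2 ± 5.42% in sham. NFE2L1, a related factor that controls proteasome genes, held most of the rest, at 75.2 ± 2.35 RPKM in pacing and 80.0 ± 8.92 RPKM in sham. HMOX1 held 10.4 ± 1.36% of the haem oxygenase level in pacing and 9.96 ± 0.191% in sham. The constitutive HMOX2 stood at 92.3 ± 0.0171 RPKM in pacing and 99.996 ± 6.15 RPKM in sham (log2 difference -0.11, adjusted p = 0.703). With 5971 to 7410 reads of HMOX2 per pacing library, that pacing SD is below what counting reads alone would give. NQO1 held 80.6 ± 2.44% of the sum with NQO2 in pacing and 77.4 ± 5.80% in sham. TXNRD1 held 58.6 ± 0.427% of the thioredoxin reductase level in pacing and 56.1 ± 0.949% in sham, with TXNRD3 at 12.9 ± 0.667 RPKM in pacing and 13.4 ± 2.94 RPKM in sham. The TXNRD1 share was higher in every pacing library (58.1 to 58.9%) than in any sham library (55.0 to 56.9%). The other family shares overlapped between the arms, and none of the shares was tested.

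Of 30 regulators and partners of NRF2, 27 were tested, 0 passed, and 13 were higher and 14 lower by arm mean (median log2 difference -0.05). PGAM5, a mitochondrial phosphatase that binds KEAP1, stood at 7.73, 4.85 and 3.89 RPKM in pacing and 2.59, 2.48 and 2.80 RPKM in sham. Its pacing libraries were all above its sham libraries (log2 difference 0.80, adjusted p = 0.373), with pacing replicate 1 far above the other pacing libraries. The acetyltransferase EP300, a coactivator of NRF2, stood at 7.72 ± 0.843 RPKM in pacing and 10.7 ± 2.04 RPKM in sham, with all pacing libraries below all sham libraries (log2 difference -0.41, adjusted p = 0.487). Of the 27 tested, 1 was higher and 1 lower without overlap, where 4.92% of all genes were higher and 11.3% lower. Both genes were named for a small p, which favours arms that do not overlap. The small MAF gene MAFF stood at 0.915 ± 0.211 RPKM in pacing and 1.66 ± 0.893 RPKM in sham (adjusted p = 0.611). CUL3, the cullin scaffold that works with KEAP1, and BACH1, the repressor that competes for antioxidant response elements, were chosen after their values were seen. CUL3 stood at 24.9 ± 1.36 RPKM in pacing and 24.5 ± 1.96 RPKM in sham (adjusted p = 0.942), and BACH1 at 3.34 ± 0.199 RPKM in pacing and 2.68 ± 0.846 RPKM in sham (adjusted p = 0.652).

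Of 38 other target genes of NRF2, 35 were found by symbol, 28 were tested and 0 passed, with 11 higher and 17 lower by arm mean (median log2 difference -0.02). ME1, malic enzyme, which makes NADPH, stood at 7.599, 7.28 and 6.81 RPKM in pacing and 5.97, 5.11 and 6.33 RPKM in sham. Its arms did not overlap (log2 difference 0.28, adjusted p = 0.521). In this list 2 genes were higher and 3 lower without overlap, 5 of 28, a share close to the 16.2% of all genes. GSTP1, a glutathione transferase, stood at 18.01 ± 2.09 RPKM in pacing and 13.9 ± 2.59 RPKM in sham (log2 difference 0.36, adjusted p = 0.547). ABCC1, an exporter of glutathione conjugates, stood at 0.548 ± 0.0506 RPKM in pacing and 0.860 ± 0.2501 RPKM in sham, also without overlap (log2 difference -0.26, adjusted p = 0.565).

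Of 19 genes of glutathione and cystine handling, 17 were tested and 0 passed (6 higher, 11 lower, median log2 difference -0.01). GGCT, which cleaves gamma-glutamyl peptides, stood at 11.1, 10.7 and 6.41 RPKM in pacing and 5.65, 4.94 and 6.81 RPKM in sham (log2 difference 0.59, adjusted p = 0.483), with pacing replicate 3 inside the sham range. CBS, of the route from homocysteine to cysteine, stood at 5.86 ± 0.778 RPKM in pacing and 7.68 ± 1.54 RPKM in sham (adjusted p = 0.584). GSS, glutathione synthetase, the enzyme after glutamate-cysteine ligase, stood at 6.60 ± 0.453 RPKM in pacing and 7.54 ± 0.380 RPKM in sham, with no overlap (log2 difference -0.17, adjusted p = 0.622). Of the 17 tested, 0 were higher and 1 was lower without overlap, beside 4.92% higher and 11.3% lower of all genes.

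Other antioxidant enzymes, such as the superoxide dismutases, were 8 higher and 11 lower of 19 tested (median log2 difference -0.01), and 0 passed. PRDX4 stood at 1.08 ± 0.147 RPKM in pacing and 0.827 ± 0.314 RPKM in sham (adjusted p = 0.675), and GPX1 at 50.1 ± 6.17 RPKM in pacing and 45.1 ± 6.48 RPKM in sham (adjusted p = 0.748). Of the haem handling genes, 7 of 12 tested were higher and 5 lower (median log2 difference 0.02), and 0 passed. CD163, the haemoglobin receptor of macrophages, stood at 8.80, 12.02 and 10.3 RPKM in pacing and 4.62, 9.88 and 3.49 RPKM in sham (log2 difference 0.80, adjusted p = 0.522), while HMOX1 in the same libraries differed by -0.04. FLVCR1, a haem exporter, stood at 1.66 ± 0.273 RPKM in pacing and 2.17 ± 0.567 RPKM in sham (adjusted p = 0.645).

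SLC7A11 is also a target of ATF4, the factor of the amino acid response, so ATF4 targets were set beside it. Of 15 tested 6 were higher and 9 lower (median log2 difference -0.12), and 0 passed. PHGDH, the first enzyme of serine synthesis, stood at 53.8, 51.2 and 41.0 RPKM in pacing and 29.7, 35.1 and 37.1 RPKM in sham, with no overlap (log2 difference 0.50, adjusted p = 0.391). Of the 15 tested, 1 was higher and 1 lower without overlap, beside 4.92% higher and 11.3% lower of all genes. MTHFD2 stood at 3.87 ± 0.0561 RPKM in pacing and 4.93 ± 0.912 RPKM in sham (adjusted p = 0.586). ATF3, which is also an immediate early gene, stood at 1.28 ± 0.149 RPKM in pacing and 3.499 ± 3.22 RPKM in sham (adjusted p = 0.628), with 7.16 RPKM in sham replicate 2.

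Immediate early and heat shock genes, with a median furthest from 0 among these lists, were set beside the stress genes of the NRF2 pathway. All 14 tested were lower in pacing by arm mean (median log2 difference -0.48), where 9482 of all 16090 genes tested were lower. None passed (0 of 14), with 6 at an unadjusted p under 0.05 by limma, where 6.3% of all genes tested were lower with such a p. Relative to the mean of all libraries, the list stood at -0.23 in sham replicate 1, close to the pacing libraries (-0.31 to -0.23). It was high in sham replicates 2 and 3 (0.74 and 0.27). HSPA8, a constitutive chaperone, stood at 499 ± 16.9 RPKM in pacing and 599 ± 21.5 RPKM in sham (adjusted p = 0.490), DNAJB1 at 5.25 ± 0.451 RPKM in pacing and 9.70 ± 3.80 RPKM in sham (adjusted p = 0.492), and FOSB at 1.90 ± 0.777 RPKM in pacing and 3.12 ± 0.523 RPKM in sham (adjusted p = 0.536). Without sham replicate 1, DNAJB1 and DUSP1 passed, both lower in pacing by mean (log2 differences -1.03 and -0.88, adjusted p = 0.0446 and 0.0363, limma). In that fit 95 of 16083 genes passed, 61 of them lower in pacing. DUSP1 stood at 2.30 RPKM in sham replicate 1, below each pacing library. HMOX1, which heat shock also induces in rat, was at -0.07 in that fit.

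**Figure D4:**
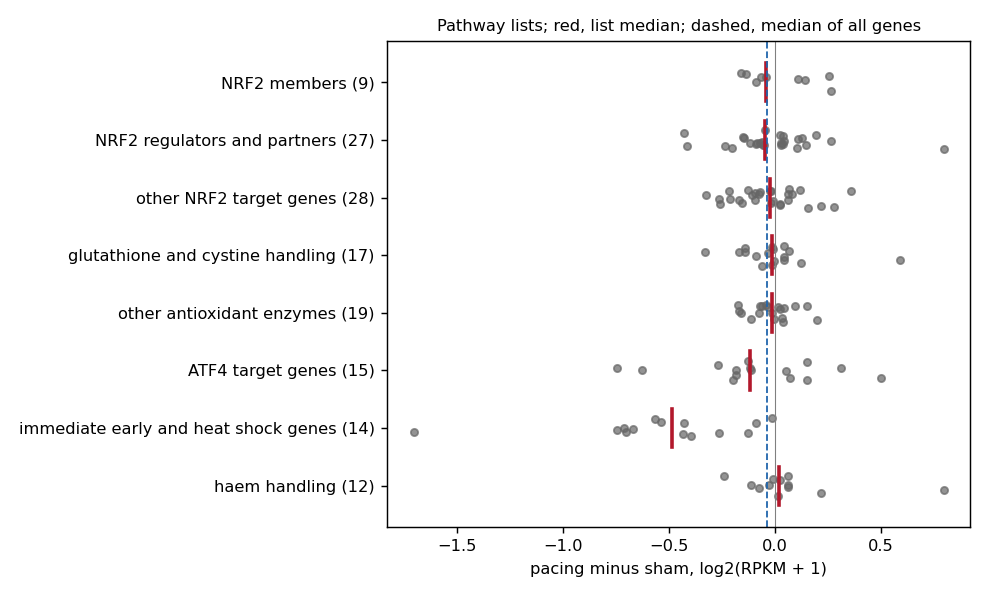
Pacing minus sham difference on the log2(RPKM + 1) scale for every tested gene (grey points) of the 9 NRF2 genes and of 7 related lists, with the number of tested genes in brackets, the list median in red and the median of all 16090 genes as a dashed line at -0.04. Medians lie between -0.12 and 0.02 for all but the immediate early and heat shock genes, whose median is -0.48.

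**Figure D5:**
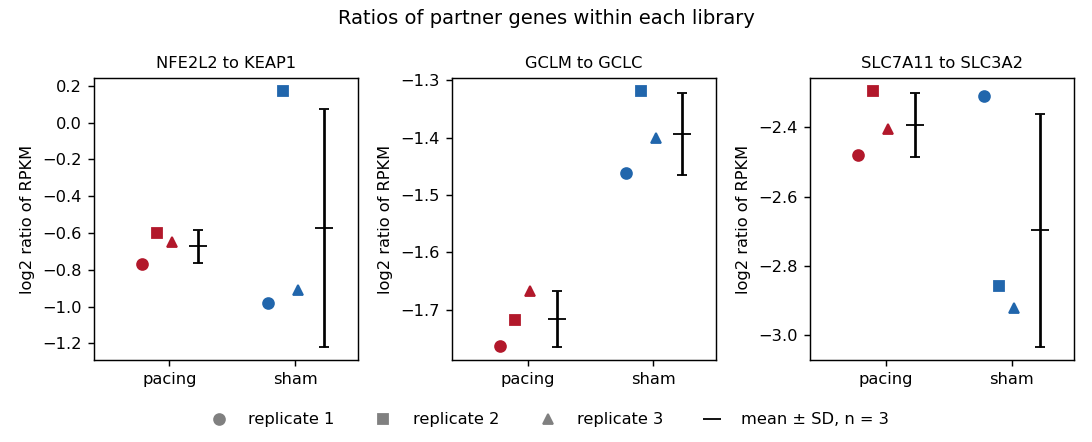
Log2 ratio of RPKM within each library for 3 pairs of partner genes, with pacing in red, sham in blue, marker shapes for the replicates and the mean ± SD of each arm in black (n = 3). The arms are apart for GCLM to GCLC (-1.76 to -1.67 in pacing, -1.46 to -1.32 in sham) and overlap for NFE2L2 to KEAP1 and for SLC7A11 to SLC3A2.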

How the data were processed

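Values are RPKM, deposited by the authors in a table with 1 column per hippocampal sample, with the exon length of each gene model in the file's length column. Trimmomatic 0.36, the aligner STAR 2.5.3a and the read counter featureCounts are named in the submitters' processing notes. No source used here gives the strand setting or the annotation release. RPKM times length was a whole multiple of 1 step per library within 0.01 read for 100% of values, which gave the read totals. Coordinates are those of the table.

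Genes with a mean of at least 0.5 RPKM over the 6 libraries were tested with limma 3.58.1 (limma-trend) in R 4.3.3 on log2(RPKM + 1), pacing minus sham, with Benjamini-Hochberg adjustment at 0.05 over 16090 genes. The fit was also run on simulated reads that had the same dispersion in both arms and no outlying library. These data differ in both respects, so that run does not show how the fit behaves on them. Ratios within a library were tested with an exact permutation test in scipy 1.17.1. No pair of libraries within an arm agreed within sampling noise (chi-square per degree of freedom 9.65 to 150). No exon of the 9 genes overlaps an exon of another gene model in the table.

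The members and lists were chosen with earlier results of these data known. From each list the genes named are those that passed and up to 3 with the smallest p, and for NFE2L2 and HMOX1 the 5 genes of highest r. A planned ratio of TXNRD1 to thioredoxin is not reported here. Of 16518 symbols 15799 also occur in a RefSeq table of UU_Cfam_GSD_1.0, which was used for gene type alone.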

Additional observations from a re-analysis of the deposited data

How the results depend on the processing

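None of the 9 genes passed under any of 17 alternatives (other pseudocounts, filters, scalings, weights, trend, threshold, voom, the replicate block and each library left out). Of 153 values of a gene under an alternative, 147 kept their direction. The estimate itself does not change with the filters, the trend, the threshold or the replicate block, so those values could not turn. The direction turned in 6. HMOX1 was 0.0146 under median-of-ratios scaling, and with 1 library left out the ranges were -0.15 to 0.041 for HMOX1, -0.40 to 0.11 for NFE2L2, -0.14 to 0.058 for KEAP1 and -0.0091 to 0.19 for TXNRD1. The difference between arms in the log2 ratio of NFE2L2 to KEAP1 ranged from -0.30 to 0.27 with 1 library left out. The cause was not tested. Over all genes the count passing was 7 with no filter, 7 at a threshold of 0.1, 23 with array weights and 3 to 95 with 1 library left out (95 without sham replicate 1, 9 without sham replicate 2), beside 4 as reported. With the replicate block it was 7. Deviations from the arm means correlated at -0.11, 0.06 and -0.01 between same-numbered libraries, and at -0.23 to 0.27 between the others. With 3 libraries per arm this cannot decide whether the numbers pair them. Under median-of-ratios or quantile scaling 3 genes were higher and 2 lower. Immediate early and heat shock genes passing were 0 to 2 with 1 library left out; every other list had 0 throughout. SLC7A11, at an unadjusted p of 0.0403 as reported, was at 0.0735 with the block. Counting error as a share of the mean was 1.46% (KEAP1) to 4.80% (HMOX1) in sham, beside a total spread of 16.5% for KEAP1 and 6.71% for HMOX1. In pacing the counting error was 1.61% (KEAP1) to 5.27% (HMOX1), and it exceeded the total spread for NQO1, GCLC, GCLM and SLC7A11.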
